A study of Mus musculus with 4 samples.

Results

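Genes of S phase and mitosis were followed across the cells of mouse bone with and without mechanical load. The list holds 39 of the 31053 genes in the count tables, matched by symbol, and falls into 17 genes used in S phase and 22 used in mitosis. It was read in all barcodes with 1000 to 40000 unique molecular identifiers (UMIs, 1 per captured transcript) and at most 10% mitochondrial UMIs. The samples were bone tissue of wild-type C57BL/6J mice in which hindlimb unloading (HLU) by tail suspension had lasted 28 days, and of control mice (Ctrl) of the same strain that were not suspended. Each group had 2 libraries of 1 mouse each. Tibiae and femurs were flushed to remove marrow, digested with enzymes, and captured as single cells in droplets with a 3′ kit of 10x Genomics, which counts the 3′ ends of transcripts.

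A dividing cell copies its DNA in S phase and pulls the copies apart in mitosis. Genes for the copying machinery are switched on at the border of G1 and S phase, largely by E2F factors, whereas genes for the spindle and for the cyclins that drive mitosis are switched on in G2 and lost again when the cell leaves mitosis. In bone and marrow, most division is found in progenitors of blood cells. Granulocyte progenitors and early neutrophils that make granule proteins still divide, and mature neutrophils have left the cell cycle.

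The members have different jobs. In S phase, Mcm2, Mcm3, Mcm4, Mcm5, Mcm6 and Mcm7 form the ring of the replicative helicase, Cdc6 loads it onto DNA, and Cdc45 and Gins2 make it active. Pcna is the clamp that holds DNA polymerases, Rrm2, Tyms and Dut serve the supply of DNA building blocks, Ung removes uracil from DNA, Slbp binds the messages of replication-dependent histones, and Uhrf1 and Hells help to keep DNA methylation. In mitosis, Cdk1 with cyclins A and B (Ccna2, Ccnb1, Ccnb2) drives entry, Plk1, Aurka, Aurkb and Bub1 are mitotic kinases, and Birc5 (survivin) works in 1 complex with Aurkb. Kif11, Tpx2, Nusap1, Hmmr and Prc1 build or bundle the spindle. Cenpa marks the centromere, Cenpe and Cenpf act at the kinetochore, Top2a untangles DNA, Mki67 coats chromosomes, Cdc20 and Ube2c work with the ubiquitin ligase that ends mitosis, and Cdkn3 is a phosphatase of cyclin-dependent kinases. The study used Birc5, Ube2c and Cdkn3 to mark a subset of monocytes, which it named a cartilage progenitor cluster.

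Promoters are shown for a selection of the members, because the S phase and mitosis lists differ in the letters they carry there. Cdc45, the S phase member called over all barcodes below, is not among those shown. RefSeq promoter windows on GRCm38.p6, from 250 bases before to 50 bases after each start site, were found for 34 of the 39 members and for 27025 genes in all (32851 windows of 300 bases); Mcm4, Gins2, Ccna2, Tpx2 and Aurkb had no entry. The 120 bases before the start site follow, 5′ to 3′ on the strand of the gene. For the mitosis genes Mki67 (chr7:135716380-135716499, minus strand), Ube2c (chr2:164769809-164769928, plus strand), Top2a (chr11:99024190-99024309, minus strand) and Cdk1 (chr10:69352913-69353032, minus strand), capitals mark the cell cycle homology region (CHR; TTTGAA or TTCGAA) and the CCAAT box (CCAAT), each searched on both strands. For the S phase genes Mcm6 (chr1:128359706-128359825, minus strand) and Hells (chr19:38930870-38930989, plus strand), capitals mark E2F sites (TTTCCCGC, TTTCGCGC, TTTGCCGC or TTTGGCGC, both strands), of which the pair at the 5′ end in Mcm6 overlap.
Mki67: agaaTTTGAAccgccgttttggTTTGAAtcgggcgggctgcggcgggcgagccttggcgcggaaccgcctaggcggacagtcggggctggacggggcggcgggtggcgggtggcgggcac
Ube2c: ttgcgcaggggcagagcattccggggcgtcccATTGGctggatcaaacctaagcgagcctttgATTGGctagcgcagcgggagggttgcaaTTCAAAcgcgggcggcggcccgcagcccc
Top2a: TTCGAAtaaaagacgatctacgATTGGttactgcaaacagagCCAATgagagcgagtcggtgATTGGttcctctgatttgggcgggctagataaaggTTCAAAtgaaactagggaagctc
Cdk1: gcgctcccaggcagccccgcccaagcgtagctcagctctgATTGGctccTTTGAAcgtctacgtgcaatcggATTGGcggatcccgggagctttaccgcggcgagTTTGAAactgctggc
Mcm6: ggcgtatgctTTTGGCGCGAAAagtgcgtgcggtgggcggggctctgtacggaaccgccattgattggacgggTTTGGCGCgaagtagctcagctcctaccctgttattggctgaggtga
Hells: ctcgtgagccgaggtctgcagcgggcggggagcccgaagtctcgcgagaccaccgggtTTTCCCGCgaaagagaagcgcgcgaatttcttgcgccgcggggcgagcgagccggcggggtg

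In the full windows the CHR was found for 15 of the 19 mitosis members with an entry (78.9%) and for 3 of the 15 S phase members (20%), against 21.7% of all genes. The CCAAT box was found for 17 of the mitosis members (89.5%) and 10 of the S phase members (66.7%), against 41.1% of all genes. E2F sites went the other way, with 7 of the 15 S phase members (46.7%: Mcm3, Mcm5, Mcm6, Mcm7, Cdc6, Uhrf1 and Hells) and 1 mitosis member (5.26%: Cdk1), against 704 of the 27025 genes (2.605%). The S phase members with a CHR were Mcm2, Mcm7 and Cdc45, each with a CCAAT box too, and Cdc45 had no E2F site. Mcm6 also has a CCAAT box, but only its E2F sites are marked above. All of these are matches of letters and not binding sites.

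Cells were assigned to types by gates, in which a barcode took the type whose fixed marker genes made up the largest share of its UMIs relative to a threshold. A gated type is thus a range of marker shares: 1409 of the 32217 kept barcodes lay under a threshold but at 0.8 times it or more, 1802 passed a threshold that was at least 0.8 times their value, 5287 passed 2 or more gates, and 6321 passed none. Markers of the gate itself led the genes of the types compared here, such as Mpo, Ctsg and Elane for primary granule progenitors, Camp, Ngp and Ltf for immature neutrophils, Retnlg and Cxcr2 for mature neutrophils, Ccr2, Ms4a6c and Cx3cr1 for monocytes, and Trbc2, Trbc1 and Cd3e for T and NK cells. In the monocyte gate the highest gene by fold was Arg1, which is no marker of the gate.

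The libraries differed before any member was looked at. Kept barcodes numbered 7340 and 7635 in Ctrl and 7757 and 9485 in HLU, with 45347595 to 87604282 UMIs per library and medians of 3799 to 6294.5 UMIs per barcode. HLU 2 stood apart, with 230 barcodes over 40000 UMIs against 6 to 17 in the other libraries. Skeletal cells were nearly missing from HLU: mesenchymal stromal cells and chondrocytes made up 26.0% and 17.1% of the kept barcodes in Ctrl 1, 16.99% and 14.9% in Ctrl 2, and at most 0.538% each in the HLU libraries. Pairs of libraries shared 13 to 21 kept barcodes, and no pair agreed within sampling noise (chi-squared per degree of freedom of 103 to 1934 over gene totals). No label but the replicate number tells the mice of a group apart, and mouse, capture and depth cannot be separated within a library. Tests of HLU against Ctrl took libraries, not cells, as replicates.

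For comparisons of cells, each barcode with at least 2000 UMIs was thinned to 2000 UMIs, which left 6245 and 6554 cells in Ctrl and 6156 and 8754 in HLU. Barcodes under 2000 UMIs, left out here, numbered 1095, 1081, 1601 and 731 in Ctrl 1, Ctrl 2, HLU 1 and HLU 2, the order in which values of the libraries are given throughout. A cell was called S-positive with 3 or more UMIs of the S phase members, mitosis-positive with 3 or more of the mitosis members, and dividing if it was either. Of the 27709 cells, 3961 were dividing, 3161 mitosis-positive and 1499 S-positive.

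Transcripts of the mitosis members lay mostly in early neutrophils. Of the mitosis members, Ube2c gave most UMIs in the kept barcodes (40916), followed by Mki67 (29503), Top2a (27157), Cenpa (24308) and Birc5 (20279). The S phase members with most UMIs were Slbp (17875), Dut (13041), Pcna (12615), Mcm3 (7654) and Mcm6 (7537), and Ung had fewest (852). Immature neutrophils held between 46.0% (Ccnb1) and 60.1% (Cdkn3) of the UMIs of every mitosis member. Among S phase members their part ran from 7.73% for Ung to 56.8% for Rrm2.

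Dividing cells held nearly all transcripts of some members and a minor part of others. The cells were called from UMIs of these same members, so a high part in dividing cells follows in some measure from the call. Of the Ube2c UMIs, 92.6%, 91.2%, 93.6% and 95.02% lay in dividing cells of the 4 libraries, and of the Rrm2 UMIs 84.0%, 81.1%, 95.1% and 92.5%. For Pcna it was 18.8%, 27.9%, 39.8% and 64.7%, and for Slbp 25.2%, 29.5%, 39.1% and 58.6%. Both genes thus gave most of their UMIs outside the cells called dividing in every library except HLU 2. Ung gave 14.4%, 22.9%, 28.4% and 72.5%. In the heat map of members by cell type the same split is seen as pale bands for Slbp, Pcna and Cenpa that run on through types with few dividing cells.

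**Figure D1:**
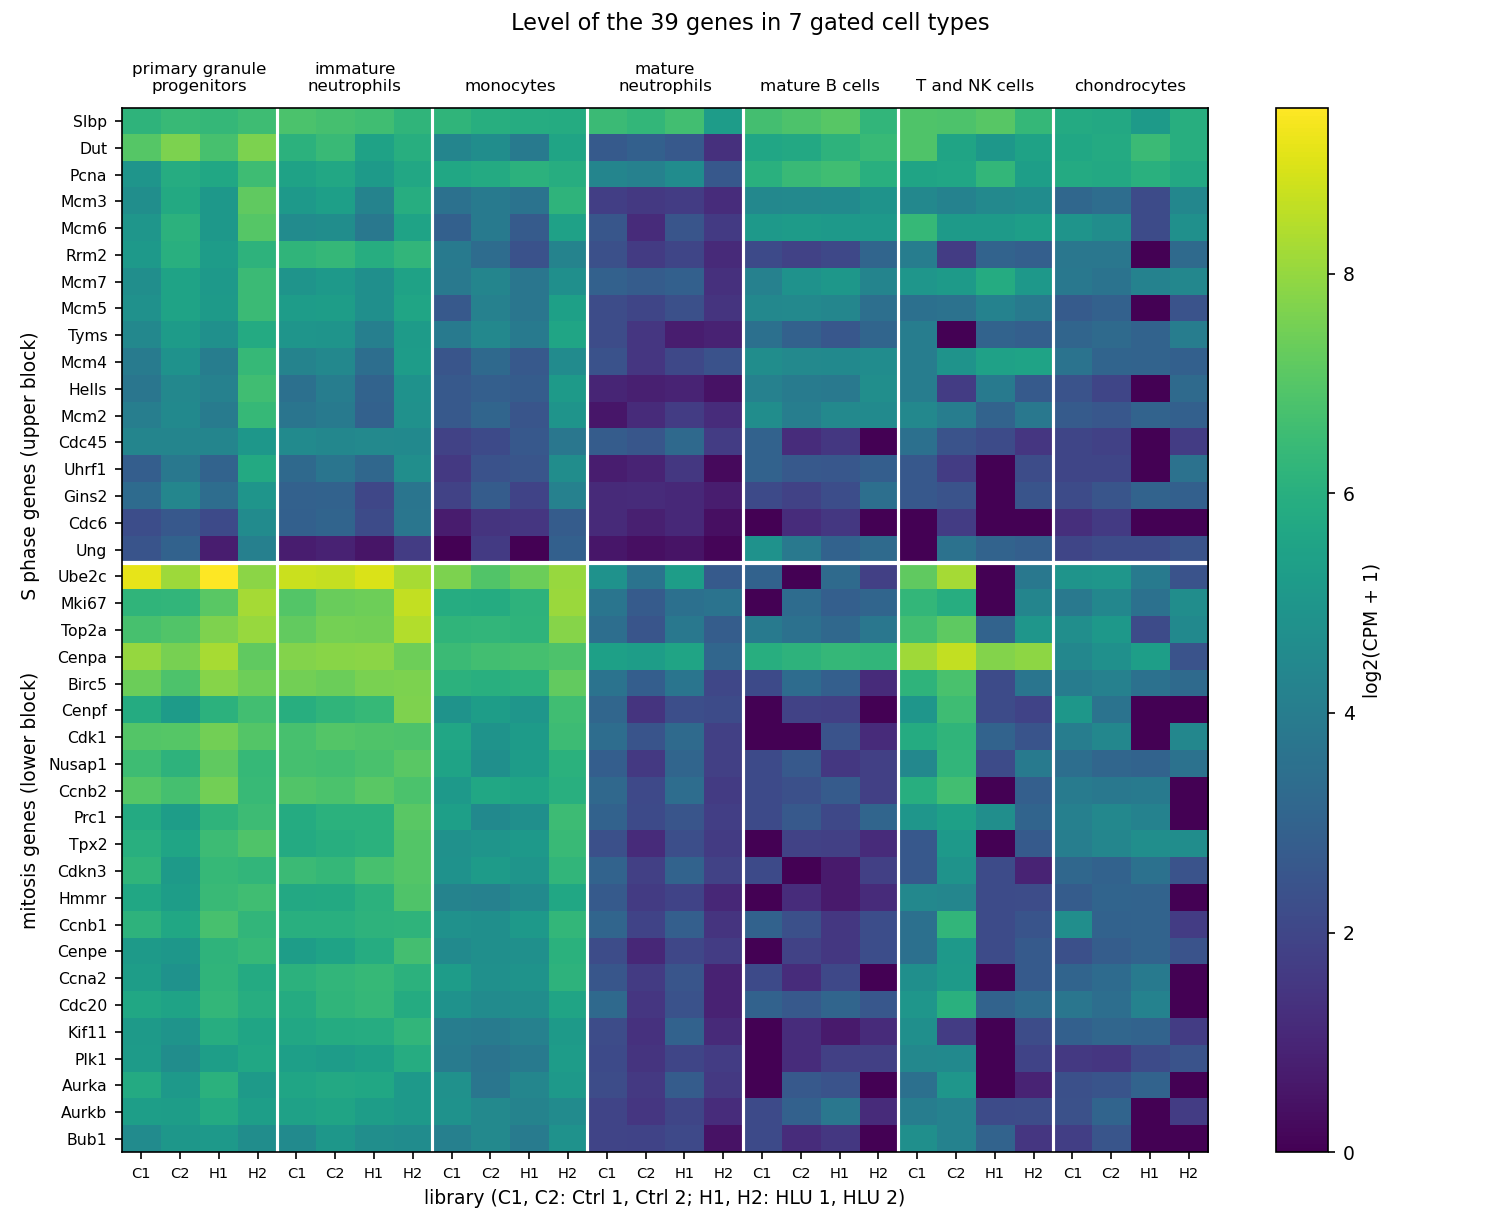
Level of each of the 39 genes, in log2(CPM + 1) on summed UMIs, with 1 row for each gene (S phase genes above the white line, mitosis genes below it, each ordered by total UMIs) and 1 column for each library within 7 gated cell types. The mitosis block is bright in primary granule progenitors and immature neutrophils of all 4 libraries, whereas in monocytes it is brightest in HLU 2, and Slbp, Dut and Pcna are seen in nearly every type.

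The summed level of the 22 mitosis members, in CPM (counts scaled to 1000000 UMIs of the gate), was 2170, 2293, 2526 and 2994 in immature neutrophils and 2207, 1587, 3072 and 2337 in primary granule progenitors. In monocytes it was 973, 844, 941 and 2053. HLU 2 was thus 2053 CPM in monocytes where the other 3 libraries lay between 844 and 973 CPM. Mature neutrophils had 199, 104, 209 and 65.3 CPM, the lowest of these types. The 17 S phase members gave 477, 786, 521 and 1377 CPM in primary granule progenitors, 538, 583, 394 and 662 CPM in immature neutrophils and 229, 275, 231 and 565 CPM in monocytes, with HLU 2 highest in each. In mature B cells, where 21 of the 22 mitosis members were too rare to test, the S phase members still gave 430, 444.2, 490 and 427 CPM.

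Dividing cells made up more of the barcodes in both HLU libraries than in either Ctrl library. They were 7.40%, 9.37%, 14.5% and 22.7% of all cells, with means of 8.38% ± 1.39 (SD, n = 2) for Ctrl and 18.6% ± 5.79 (SD, n = 2) for HLU. The difference of 10.3 percentage points gave p = 0.333 in a two-sided exact permutation test, the smallest p that 2 libraries against 2 allow. Benjamini-Hochberg adjustment of this test over 8 populations gave 0.533, as for the other dividing and mitosis-positive shares whose groups did not overlap. For groups that did not overlap, the adjusted p of the test was 0.667 in S-positive shares and 0.444 in the mitosis-positive part of dividing cells. Without thinning the shares were 28.7%, 30.1%, 27.8% and 36.0%, so HLU 1 then lay below both Ctrl libraries.

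The difference was smaller outside the skeletal and endothelial gates, in which few cells of Ctrl were dividing. The cells left held not only gated blood cells but also 1245, 1074, 742 and 2246 cells that passed no gate. With the gates of skeletal and endothelial cells left out, which was tried only once the values were known, dividing cells were 12.1%, 12.3%, 14.6% and 22.9% of 3205, 4343, 6115 and 8654 cells. The HLU libraries were still above the Ctrl libraries, HLU 1 by less than before. Mitosis-positive cells were 10.1%, 9.97%, 12.4% and 18.1%.

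Primary granule progenitors had the highest dividing share of the types compared. Of 109, 139, 210 and 522 cells, 42.2% (95% exact interval 32.8 to 52.0), 41.7% (33.4 to 50.4), 54.3% (47.3 to 61.2) and 74.9% (71.0 to 78.6) were dividing. Intervals were taken by the Clopper-Pearson method and reflect nothing but counting error. The mean of Ctrl was 42.0% ± 0.336 and that of HLU 64.6% ± 14.6 (SD over 2 libraries; exact permutation p = 0.333), so the HLU libraries differed more from each other than HLU 1 from Ctrl. HLU 2, highest in this share, was also deepest before thinning, with median UMI counts of 10755, 14720, 12727 and 24650 for these barcodes. Ctrl 2 was deeper than HLU 1, and its share was lower. The part of depth in the difference was not tested.

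Immature neutrophils, the largest dividing population, had overlapping groups. Their dividing share was 30.1% (26.7 to 33.8), 33.7% (30.7 to 36.7), 30.0% (27.8 to 32.4) and 43.8% (41.8 to 45.9) of 667, 977, 1545 and 2257 cells. HLU 1 lay level with Ctrl 1 and HLU 2 above all. The Ctrl mean of 31.9% ± 2.50 and the HLU mean of 36.9% ± 9.75 (SD over 2 libraries) differed by 5.02 points (exact permutation p = 1), and without HLU 2 the difference was -1.87 points.

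Monocytes had a low dividing share in 3 libraries and a high one in HLU 2. Of 142, 215, 344 and 672 cells, 12, 20, 37 and 251 were dividing, or 8.45% (4.44 to 14.3), 9.30% (5.78 to 14.0), 10.8% (7.69 to 14.5) and 37.4% (33.7 to 41.1). The interval of HLU 1 overlapped those of both Ctrl libraries, and that of HLU 2 overlapped none. Means were 8.88% ± 0.602 for Ctrl and 24.1% ± 18.8 for HLU (SD over 2 libraries; exact permutation p = 0.333). Without HLU 2 the difference of 15.2 points shrank to 1.88 points. In HLU 2 the monocyte gate was also deeper (median 16623 UMIs, against 8688, 9338 and 11493.5) and held more transcripts of immature neutrophil markers (median 14.7 per 10000 UMIs, against 2.07, 3.74 and 4.08), and the part of either in the result was not tested.

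Few mature neutrophils were called dividing, and more of the mature B cells were. Of 842, 1564, 2537 and 2038 mature neutrophils 1.07%, 0.831%, 2.17% and 0.393% were dividing, at median depths of 3275.5, 3220.5, 3317 and 4429.5 UMIs. Mature B cells were called in 5.97%, 8.28%, 10.99% and 9.33% of 67, 169, 382 and 193 cells, at median depths of 3626, 3683, 3493 and 2741 UMIs. These calls came from S phase genes, because only 1.49%, 1.78%, 1.57% and 1.55% of mature B cells were mitosis-positive, against 7.75%, 8.84%, 9.30% and 31.2% of monocytes. The difference in the dividing share of mature B cells, 3.03 points, turned to -5.20 points without thinning.

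T and NK cells were the 1 type with a lower dividing share in both HLU libraries, 17.8% (8.002 to 32.1), 13.7% (7.71 to 21.96), 9.68% (3.63 to 19.9) and 10.3% (7.08 to 14.3) of 45, 102, 62 and 302 cells. All 4 intervals overlap. Mitosis-positive T and NK cells were 11.1%, 7.84%, 0% and 5.63%, where the exact interval for 0 of 62 cells reaches up to 5.78%. With a threshold of 2 UMIs in place of 3, the difference of -5.78 points in the dividing share turned to 1.52 points.

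Chondrocytes, with 46, 46, 1 and 2 dividing cells, had shares of 3.89%, 4.68%, 4.76% and 4.65%, and the 21 and 43 HLU cells leave the HLU values with wide intervals. Some types had too few cells in Ctrl for a comparison. Erythroid cells were dividing in 9 of 24 cells of HLU 1 (37.5%, 18.8 to 59.4) and 94 of 280 cells of HLU 2 (33.6%, 28.1 to 39.4), and all of these were mitosis-positive. Precursor B cells gave 20.5%, 32.4% and 16.2% of 44, 34 and 154 cells in Ctrl 1, Ctrl 2 and HLU 1, and basophils and mast cells 44.8% of 58 cells in HLU 2. Macrophages of HLU 2 had 0 of 34, for which the exact interval reaches up to 10.3%.

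**Figure D2:**
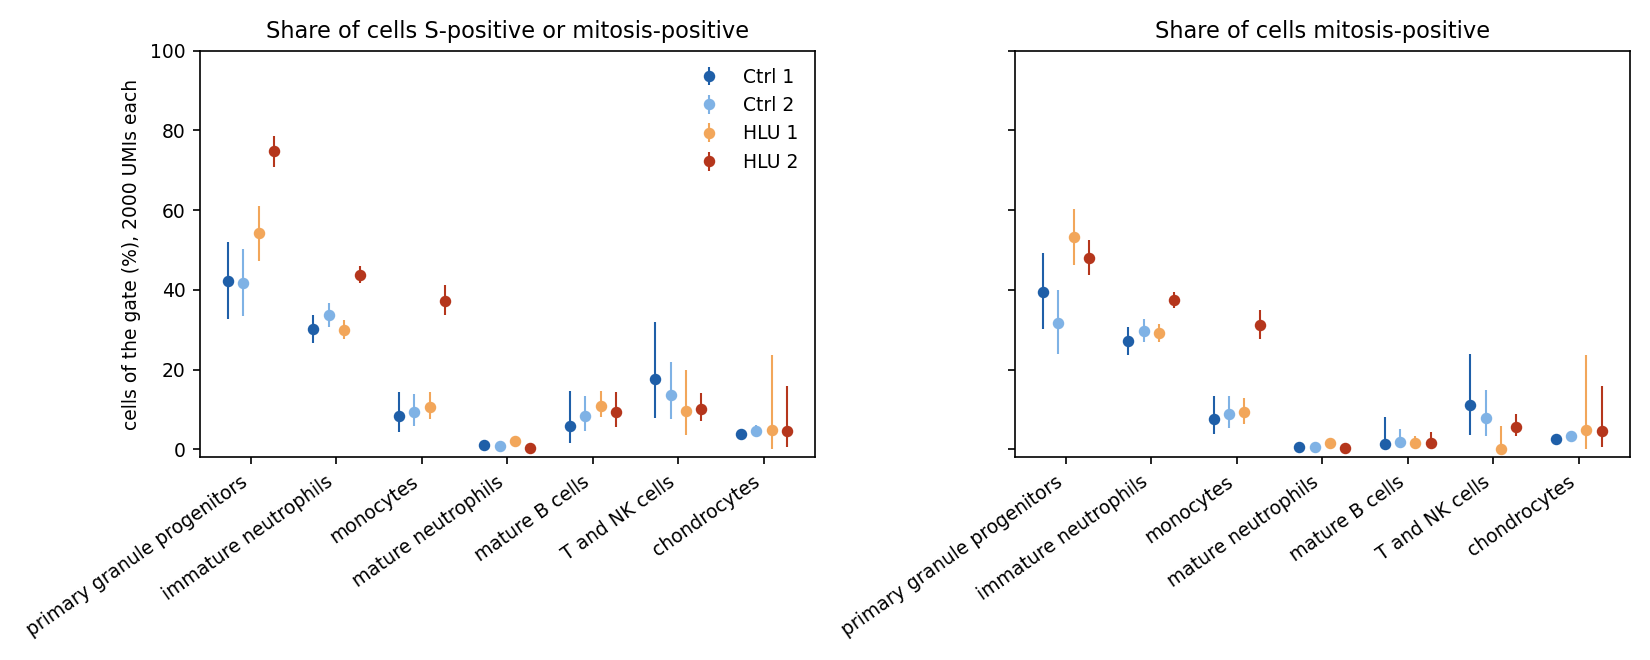
Share of cells called dividing (left) and mitosis-positive (right), in percent of the cells of 7 gated types after thinning to 2000 UMIs, with 1 point for each library and bars for the 95% exact binomial interval. In monocytes HLU 2 stands at 37.4% dividing above 8.45% to 10.8% in the other 3 libraries, while in primary granule progenitors both HLU points lie above both Ctrl points.

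The dividing cells of the 2 HLU libraries differed in the phase of the cycle they showed. In primary granule progenitors, S-positive cells were 9.17%, 17.3%, 10.95% and 44.6%, while mitosis-positive cells were 39.4%, 31.7%, 53.3% and 48.1%. HLU 2 thus had the highest S-positive share and HLU 1 the highest mitosis-positive share. Among dividing progenitors, 93.5%, 75.9%, 98.2% and 64.2% were mitosis-positive, so 1 HLU library was above and 1 below both Ctrl libraries (exact permutation p = 1).

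In immature neutrophils HLU 1 had the lowest S-positive share (10.6%, 12.9%, 7.25% and 12.9%). Mitosis-positive cells made up 27.1%, 29.7%, 29.1% and 37.4% there, highest in HLU 2, and 90.0%, 88.1%, 97.0% and 85.3% of the dividing cells, highest in HLU 1. In dividing monocytes the mitosis-positive part was 91.7%, 95%, 86.5% and 83.7%, of 12, 20, 37 and 251 cells. The groups did not overlap there (exact permutation p = 0.333), but with a threshold of 2 UMIs the difference of -8.26 points became 7.03. Mature B cells that were called dividing were mitosis-positive in 25%, 21.4%, 14.3% and 16.7% only.

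**Figure D3:**
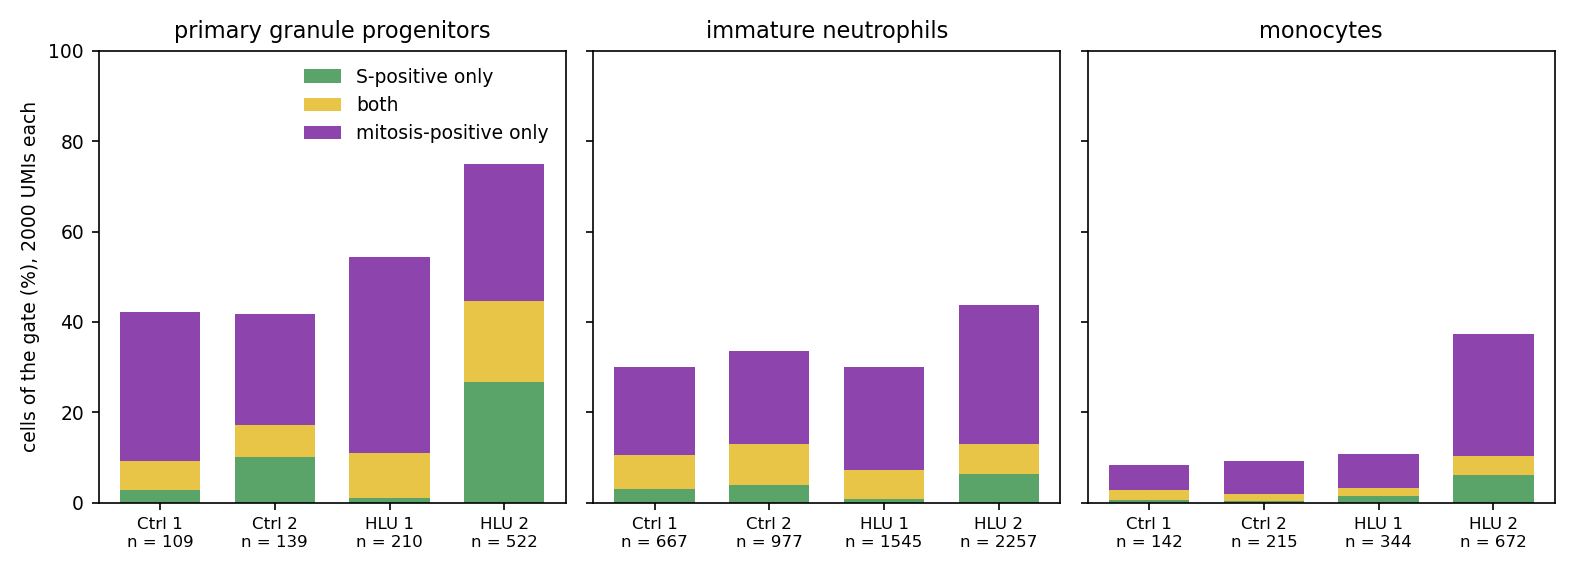
Cells of 3 gated types after thinning to 2000 UMIs, in percent of the cells of each library (n under each bar), stacked as S-positive only, positive for both lists, and mitosis-positive only. The S-positive parts are largest in the progenitors of HLU 2, at 44.6% for both parts together, and the S-positive only part is thin in the progenitors and immature neutrophils of HLU 1.

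Mitosis-positive cells gave more UMIs than non-dividing cells in each library of the 3 types with most of them. In immature neutrophils the median was 12040, 11797, 12521.5 and 15176 UMIs for mitosis-positive cells and 6589.5, 6644, 8138 and 8414.5 for cells that were not dividing, a ratio of 1.83, 1.78, 1.54 and 1.80. Monocytes gave ratios of 1.80, 1.64, 1.58 and 1.39, and primary granule progenitors 1.46, 1.38, 1.30 and 1.11. In other gates, with fewer mitosis-positive cells, the ratio was not always above 1, as in mature neutrophils (3.06, 0.909, 0.921 and 1.38). Over all barcodes, those called doublets were more frequent among mitosis-positive cells, at 12.04%, 9.22%, 9.34% and 10.53% against 5.41%, 4.98%, 5.82% and 6.65% of cells that were not dividing. Within primary granule progenitors they were less frequent among them in every library, at 2.33%, 0%, 0.893% and 11.6% against 12.7%, 6.17%, 6.25% and 12.2%. In immature neutrophils they were 7.73%, 8.97%, 10% and 7.11% against 4.29%, 6.48%, 5.27% and 11.9%, with HLU 2 the other way round from the rest. Of the 11 mitosis-positive monocytes of Ctrl 1, 54.5% were called doublets, against 5.26%, 9.38% and 12.9% in the other libraries. Among mature neutrophils, doublets were 0%, 22.2%, 27.5% and 42.9% of 6, 9, 40 and 7 mitosis-positive cells. They were 4.20%, 4.13%, 6.89% and 3.79% of the mature neutrophils that were not dividing.

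Other cell cycle genes, which were not used to call the cells, gave an independent view of the mitosis-positive cells. Of 30 other mitosis genes, all 30 were higher in mitosis-positive than in non-dividing immature neutrophils in each of the 4 libraries, as were 23 of the 24 other S phase genes with at least 10 UMIs in every library, against 35.4% of all genes. In monocytes it was 21 of 22 and 11 of 13, against 18.3% of all genes, and in primary granule progenitors 26 of 26 and 11 of 16, against 20.5%. The mitosis genes that were counted in no call thus went with the calls in nearly every case.

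Among inhibitors of cyclin-dependent kinases, Cdkn2c (p18) and Cdkn2d (p19) were high in the mitosis-positive immature neutrophils. Cdkn2c stood at 43.1, 51.8, 54.5 and 46.0 CPM in them and at 4.63, 4.89, 4.38 and 2.87 CPM in non-dividing cells. Cdkn2d stood at 364, 409, 380 and 313 CPM against 148, 174, 149 and 191 CPM. Both genes were higher in the mitosis-positive cells of every library. Cdkn1b (p27) stood at 56.4, 107, 90.1 and 63.5 CPM against 77.6, 123, 84.2 and 54.3 CPM, with no common direction. Primary granule markers also leaned to the mitosis-positive cells of this gate (12.1, 14.5, 9.04 and 15.9 per 10000 UMIs, against 8.14, 7.56, 7.87 and 5.19), and mature neutrophil markers to the other cells (19.4, 25.4, 25.6 and 13.7, against 40.4, 50.1, 44.4 and 35.9).

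In sums over all kept barcodes, 16 of the 39 members were higher in HLU by edgeR's quasi-likelihood test (Benjamini-Hochberg adjusted p under 0.05) and 0 were lower. Of these, 15 were among the 22 mitosis members and 1 among the 17 S phase members. Over all 15385 genes tested, 6.06% were called higher. The median log2 difference was 1.51 for mitosis members and 1.08 for S phase members, against 0.04 for all genes, and 27 of the 39 members had an unadjusted p under 0.05, against 38.2% of all genes. In such sums, more cells of a type and more RNA per cell cannot be told apart. Levels below are in CPM scaled with edgeR's TMM factors, and as counts of 3′ ends they compare 1 gene across libraries, not genes with each other.

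The largest rise was that of Mki67, with 25.5, 42.8, 87.1 and 263 CPM. HLU 1 was above both Ctrl libraries and HLU 2 higher still, for a log2 difference of 2.36 (SE 0.61, edgeR's adjusted p = 0.0479). Cenpe, a kinetochore motor, gave 9.62, 13.05, 32.0 and 64.7 CPM (2.09, SE 0.42, edgeR's adjusted p = 0.0255), and Hmmr, a spindle protein, 11.4, 15.2, 35.8 and 70.2 CPM (1.99, SE 0.41, edgeR's adjusted p = 0.0267). In all 3 genes, which were picked by this test, the groups did not overlap. Of all genes, 44.4% lay above both Ctrl libraries in HLU 1 and 43.5% in HLU 2. The share above them in both HLU libraries at once was not counted.

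The 3 genes that the study used as subset markers were also called, here over all barcodes and not within that subset. Immature neutrophils held 60.1%, 54.5% and 55.1% of the UMIs of Cdkn3, Birc5 and Ube2c, and monocytes 8.19%, 8.34% and 8.68%. Cdkn3 gave 18.4, 19.2, 51.5 and 70.5 CPM (log2 difference 1.70, SE 0.28, edgeR's adjusted p = 0.0151), Birc5 38.7, 43.9, 101 and 132 CPM (1.49, SE 0.28, edgeR's adjusted p = 0.0214) and Ube2c 96.8, 100.2, 272 and 205 CPM (1.28, SE 0.28, edgeR's adjusted p = 0.0318). Of these, Ube2c was highest in HLU 1.

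Among the drivers of mitosis, the cyclins Ccna2 (15.3, 19.3, 41.7 and 48.1 CPM), Ccnb1 (19.98, 18.2, 42.4 and 54.2 CPM) and Ccnb2 (25.3, 30.4, 69.0 and 67.1 CPM) rose by 1.38, 1.34 and 1.29 on the log2 scale, and their partner Cdk1 (26.3, 36.0, 64.4 and 80.6 CPM) by 1.22. The kinases Plk1 (8.95, 9.16, 21.4 and 37.1 CPM) and Aurka (11.8, 13.5, 29.0 and 25.3 CPM) rose by 1.69 and 1.10. The spindle genes Nusap1 (22.3, 26.1, 59.7 and 82.7 CPM) and Kif11 (10.7, 15.3, 30.7 and 43.9 CPM) rose by 1.56 and 1.52, and Cdc20 (15.998, 20.1, 40.3 and 40.4 CPM), which activates the ubiquitin ligase of anaphase, by 1.16. For every one of these 9 genes both HLU libraries lay above both Ctrl libraries, with adjusted p of 0.0212 to 0.0395 in edgeR. They were picked by that test, and 44.4% of all genes lay above both Ctrl libraries in HLU 1 and 43.5% in HLU 2. The 7 mitosis members that missed the threshold were Cenpf, Top2a, Tpx2, Prc1, Bub1, Cenpa and Aurkb, with log2 differences of 0.97 to 1.89 and edgeR's adjusted p of 0.0502 to 0.0719. Top2a gave 35.3, 54.4, 96.8 and 213 CPM and Cenpa 56.7, 75.6, 144 and 120 CPM, and in both genes the HLU libraries were above the Ctrl libraries.

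The S phase member called was Cdc45, a cofactor of the helicase, with 6.51, 6.69, 13.3 and 16.3 CPM (log2 difference 1.16, SE 0.27, edgeR's adjusted p = 0.0342). Uhrf1 (2.59, 4.89, 6.24 and 24.4 CPM) and Hells (4.48, 5.99, 6.93 and 35.1 CPM) had larger log2 differences, 2.04 and 2.01, but also larger errors (SE 0.72 and 0.76) and an adjusted p of 0.102 and 0.121 in edgeR. In both genes, as in Mcm3 (12.1, 15.8, 16.4 and 64.6 CPM), HLU 1 lay close to Ctrl and HLU 2 far above it. The smallest differences were those of Pcna (49.5, 51.0, 46.0 and 56.0 CPM, log2 difference 0.02), Slbp (64.2, 69.1, 92.6 and 70.2 CPM, 0.29) and Dut (40.7, 49.3, 38.4 and 73.1 CPM, 0.31). Mcm6 gave 23.6, 22.1, 16.3 and 50.3 CPM (0.55), with HLU 1 below and HLU 2 above both Ctrl libraries. The other S phase members, Mcm2, Mcm4, Mcm5, Mcm7, Tyms, Gins2, Rrm2, Cdc6 and Ung, had log2 differences from 0.47 (Ung) to 1.64 (Mcm2), with edgeR's adjusted p of 0.0818 or more.

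The HLU libraries thus differed between the lists. In HLU 1, 22 of 22 mitosis members were above both Ctrl libraries, and 9 of 17 S phase members were above and 6 below. Of all genes tested 44.4% were above and 45.9% below both Ctrl libraries in HLU 1, so the split of the S phase members was near that of all genes. In HLU 2, all 39 members were above both, against 43.5% of all genes. With each HLU library set against both Ctrl libraries, the median log2 difference was 1.22 for mitosis and 0.19 for S phase members in HLU 1, and 1.79 and 1.46 in HLU 2. Without HLU 1, edgeR called 37 members higher, with 22.1% of all genes called higher, and without HLU 2 it called 23, with 15.1%, where the lone HLU library is assumed to vary like the Ctrl libraries. Without either Ctrl library it called 0.

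The calls over all barcodes were lost when part of the barcodes was taken out. Whether the rest was more alike in makeup was not tested. With the skeletal and endothelial gates left out, 0 of the 39 members were called by edgeR, where 0.0556% of all genes were called higher, and 9 had an unadjusted p under 0.05, which 20.1% of all genes had too. The median log2 difference was then 0.80 for S phase and 0.73 for mitosis members, against 0.08 for all genes, so that the median of the mitosis members had come down by more. Mki67 was at 50.4, 68.7, 87.4 and 276 CPM (log2 difference 1.61, edgeR's adjusted p = 0.212) and Cdkn3 at 37.2, 31.0, 51.7 and 73.8 CPM (0.88, edgeR's adjusted p = 0.184). In both genes the HLU libraries were still above the Ctrl libraries, by less than before. The plot of both fits shows the shift gene by gene.

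**Figure D4:**
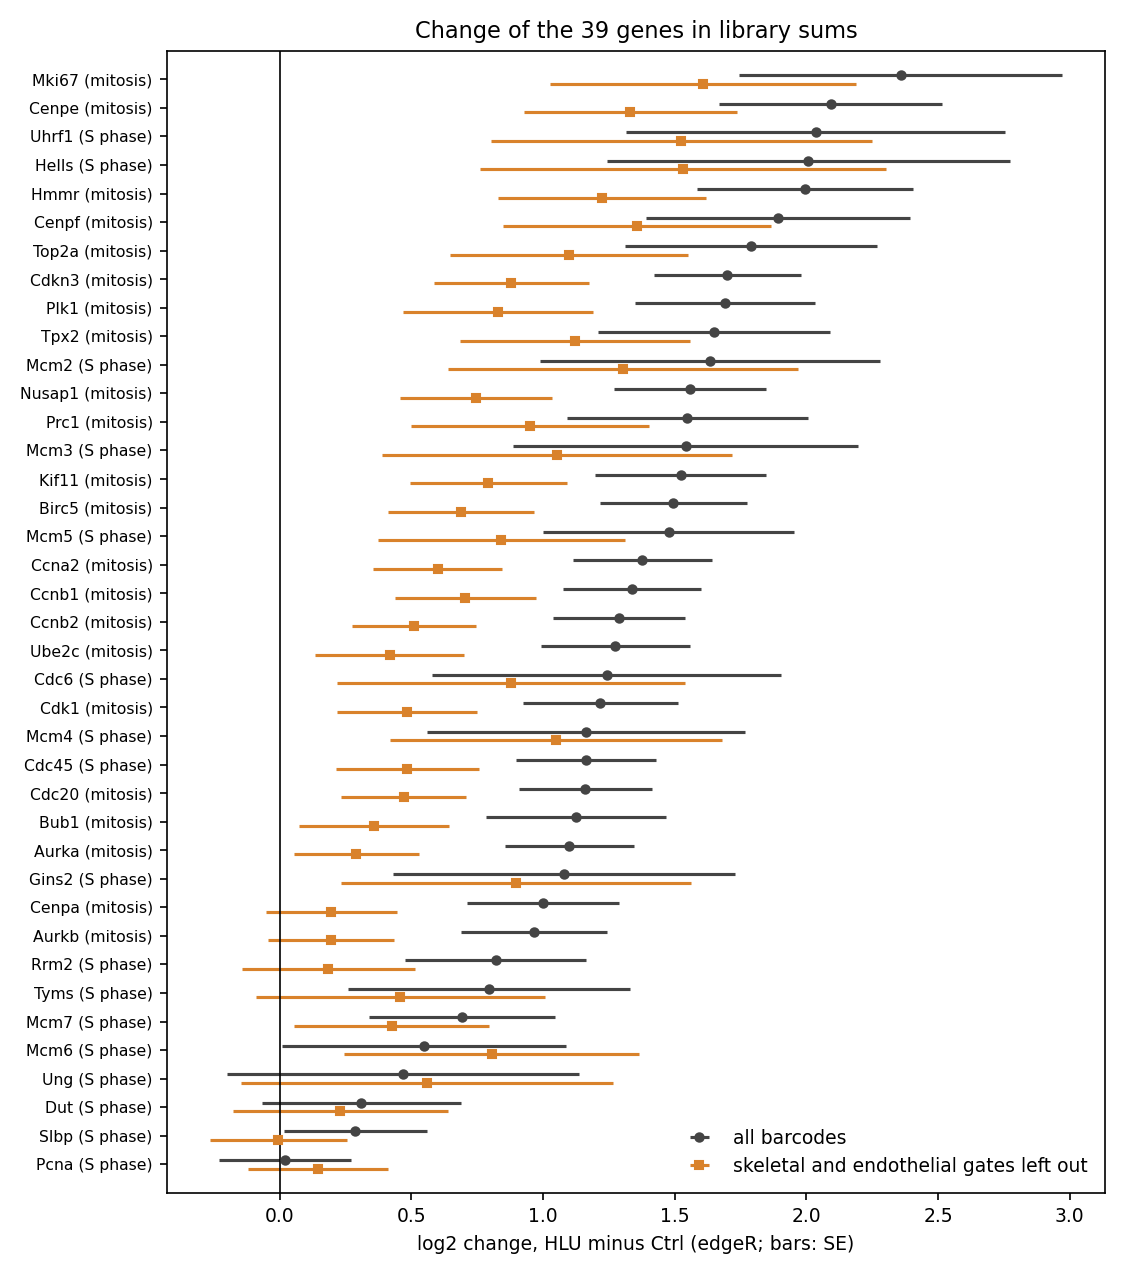
Log2 difference of each of the 39 genes between HLU and Ctrl (2 libraries each) in library sums, as fitted by edgeR, with bars for the standard error, over all barcodes (circles) and with skeletal and endothelial gates left out (squares). Mki67 moves from 2.36 to 1.61 and Pcna stays near 0, and all mitosis genes move to the left.

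Within single types no member was called higher, and members were called lower in T and NK cells only. In primary granule progenitors 0 of 39 members were called by edgeR and 0 by DESeq2, where 0.388% of all genes were called, and 4 had an unadjusted p under 0.05 (5.72% of all genes did), all with adjusted p = 0.752. These were Mki67 (85.4, 79.6, 131 and 257 CPM, log2 difference 1.24), Cenpe (40.9, 33.3, 70.7 and 70.4 CPM, 0.93), Top2a (121, 125, 201 and 228 CPM, 0.80) and Hmmr (56.6, 40.0, 85.3 and 82.3 CPM, 0.80). For each of them, picked by that p, both HLU libraries lay above both Ctrl libraries. Of all genes, 35.3% lay above both Ctrl libraries in HLU 1 and 44.6% in HLU 2.

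The largest differences in these progenitors had overlapping groups. They were those of Hells (13.9, 21.7, 16.99 and 83.1 CPM, log2 difference 1.49), Uhrf1 (6.97, 13.5, 7.14 and 46.6 CPM, 1.39) and Cdc6 (4.35, 5.31, 3.40 and 19.8 CPM, 1.31). In each, HLU 2 alone was above Ctrl. On the lower side stood Dut (145, 208, 106 and 171 CPM, -0.35), Cenpa (297, 194, 301 and 127 CPM, -0.20) and Bub1 (26.1, 33.3, 33.6 and 20.9 CPM, -0.15). In HLU 1, 20 of 22 mitosis members were above both Ctrl libraries and 10 of 17 S phase members below both, against 35.3% and 33.7% of all genes. In HLU 2, 14 of 17 S phase members were above both, against 44.6% of all genes. The mitosis members did there what all genes did, with 10 of 22 above and 8 below, where 38.2% of all genes were below. Without HLU 1 edgeR called 21 members, 17 of them higher (15.6% of all genes were called higher), and without HLU 2 it called 2, both higher (0.568%). Ube2c gave 658, 292, 720 and 199 CPM, so that each group held 1 high and 1 low library, as did Birc5 (191, 121, 217 and 145 CPM) and Cdkn3 (85.4, 36.7, 80.5 and 65.4 CPM).

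In immature neutrophils 0 of 39 members were called by edgeR and 0 by DESeq2, where 1.72% of all genes were called, all of them lower. The 1 member with an unadjusted p under 0.05 was Cenpe, with 39.5, 44.5, 54.2 and 107 CPM (log2 difference 0.94, SE 0.37, edgeR's adjusted p = 0.429). Of all genes, 11.3% had such a p. Cenpf (62.7, 73.4, 75.5 and 213 CPM) and Mki67 (127, 160, 155 and 422 CPM) differed by 1.09 and 1.005. In both, HLU 1 lay near Ctrl 2. Dut (70.9, 86.9, 40.6 and 65.7 CPM, -0.57), Slbp (115, 103, 89.0 and 78.8 CPM, -0.38) and Aurkb (44.2, 46.3, 34.98 and 35.9 CPM, -0.35) had the lowest values, and in each of them both HLU libraries were under Ctrl. Of all genes, 38.1% lay below both Ctrl libraries in HLU 1 and 42.6% in HLU 2.

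The median log2 difference in immature neutrophils was 0.12 for S phase and 0.21 for mitosis members, against 0.01 for all genes. Behind it the HLU libraries went apart. All 17 S phase members were below both Ctrl libraries in HLU 1 (median log2 difference -0.97), and 13 were above both in HLU 2 (0.78), against 38.1% and 42.2% of all genes. Mcm3, for instance, gave 35.4, 40.1, 16.4 and 63.7 CPM, and Mcm6 24.0, 24.3, 11.9 and 47.2 CPM. Mitosis members had medians of 0.02 and 0.41. Without HLU 1 edgeR called 17 members, all higher (16% of all genes were called higher), and without HLU 2 it called 7, all lower and all of S phase (5.33% of all genes were called lower). Ube2c (445, 413, 463 and 322 CPM), Birc5 (181, 165, 176 and 210 CPM) and Cdkn3 (91.3, 79.8, 97.5 and 130 CPM) had log2 differences of -0.13, 0.16 and 0.41.

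In monocytes 37 members could be tested (Ung and Cdc6 were too rare) and 0 were called, by edgeR or by DESeq2, where 0.0% of all genes were called. An unadjusted p under 0.05 was found for 0 members, against 4.69% of all genes. The largest differences were those of Uhrf1 (2.12, 4.19, 4.48 and 24.1 CPM, log2 difference 2.14, SE 0.92), Hells (5.65, 6.29, 5.60 and 34.8 CPM, 1.77) and Mcm3 (11.3, 13.8, 10.8 and 72.3 CPM, 1.73). Each rested on HLU 2, since HLU 1 lay at or near the level of Ctrl. Mki67 gave 62.1, 56.6, 66.6 and 268 CPM and Top2a 78.4, 74.6, 69.5 and 221 CPM, with the same pattern.

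The markers that the study used for its monocyte subset were also highest in HLU 2: Birc5 gave 73.4, 63.7, 65.2 and 148 CPM, Cdkn3 29.7, 36.5, 28.9 and 74.9 CPM, and Ube2c 211, 121, 159 and 260 CPM. On the lower side were Aurkb (29.7, 21.4, 17.3 and 22.6 CPM, -0.34), Slbp (77.7, 61.6, 56.5 and 56.8 CPM, -0.29) and Rrm2 (14.8, 9.22, 4.03 and 18.2 CPM, -0.05). Over the tested members the median log2 difference to Ctrl was -0.14 in HLU 1 and 1.41 in HLU 2, where 35 of 37 were above both Ctrl libraries, against 42.0% of all genes. Without HLU 1 edgeR called 31 members, all higher (19.6% of all genes were called higher), and without HLU 2 it called 0 (0.37%).

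Whether monocytes changed more than immature neutrophils was tested within libraries. In edgeR's interaction test 0 of 39 members were called (0.0% of all genes), and 4 had an unadjusted p under 0.05, a share of members near the 8.40% of all genes at that threshold. The 4 were Mcm3 (difference of the log2 differences 1.37, SE 0.38), Cdc45 (1.40, SE 0.55), Uhrf1 (1.27, SE 0.47) and Hells (1.14, SE 0.41), with edgeR's adjusted p of 0.469 to 0.565. Cdc6, at 1.39 (SE 0.62), was next to them. The lowest values were those of Cenpf (-0.30), Cenpe (-0.16) and Rrm2 (-0.06). The median over the members was 0.35, against -0.02 for all genes.

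The T and NK gate held the calls made within a type. Of the 39 members 16 passed the filter on low counts and 5 were called by edgeR, all lower in HLU, where 0.503% of all genes were called, all lower. Ube2c gave 151, 330, 0 and 14.8 CPM (log2 difference -4.54, edgeR's adjusted p = 0.0131), Cdk1 59.4, 79.6, 6.98 and 5.29 CPM (-3.57, edgeR's adjusted p = 0.0164) and Ccnb2 64.8, 109, 0 and 7.41 CPM (-3.99, edgeR's adjusted p = 0.0201). Both Ctrl libraries were high and both HLU libraries low. Birc5 (75.6, 121, 3.49 and 13.8 CPM, -3.20) and Cenpf (32.4, 101, 3.49 and 3.18 CPM, -4.38) were called likewise. The largest differences on the other side were those of Mcm4 (16.2, 31.4, 41.9 and 51.9 CPM, 0.89), Mcm7 (32.4, 38.6, 55.8 and 38.1 CPM, 0.30) and Pcna (48.6, 53.1, 76.8 and 45.5 CPM, 0.17).

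Most mitosis UMIs of this gate in Ctrl came from 3 barcodes. In Ctrl 1, 1 barcode with 16569 UMIs held 79.1% of the mitosis UMIs of the gate, and in Ctrl 2 barcodes with 21407 and 30699 UMIs held 46.1% and 39.7%. They stood at 1.29, 1.65 and 1.02 times the threshold of the gate. T and NK markers were at 34.5 and 24.3 per 10000 UMIs in mitosis-positive cells of Ctrl 1 and Ctrl 2, against 39.6 and 46.4 in non-dividing cells. Precursor B cell markers were at 0 and 6.07, against 0 and 0.029, and the B cell list at 0 and 0.660, against 0.0686 and 0.0578. Dendritic cell markers were at 0 and 5.01, against 0 and 0.0867, and monocyte markers at 4.56 and 5.01, against 3.63 and 1.21. Endothelial markers were at 0 and 3.17, against 0.549 and 0.549. Other lists went the other way, such as immature neutrophil markers at 2.28 and 3.30, against 2.74 and 11.4. Whether the 3 barcodes were T or NK cells was not tested. With barcodes over 10000 UMIs left out, which was also tried once the values were known, 0 members were called by edgeR, with 0.462% of all genes called lower. An unadjusted p under 0.05 was found for 0 members, against 7.46% of all genes. Only 7 members could then be tested, 6 of S phase and Cenpa, so that none of the 5 genes could have been called again. The count was also 0 without Ctrl 2 and without HLU 2 (0.143% of all genes called lower).

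In the remaining types 0 members were called by edgeR or by DESeq2. Mature neutrophils had 34 members tested, with 2.26% of all genes called. An unadjusted p under 0.05 was found for 0 of these members, against 12.4% of all genes. They ran from Mcm2 (0.443, 1.17, 1.91 and 1.72 CPM, log2 difference 1.09), Kif11 (3.33, 1.46, 5.89 and 1.59 CPM, 0.72) and Aurka (3.33, 1.90, 4.93 and 2.65 CPM, 0.58) down to Hmmr (5.10, 2.04, 2.35 and 1.46 CPM, -0.84), Cdc20 (7.98, 1.75, 3.68 and 1.19 CPM, -0.91) and Tyms (3.33, 1.75, 0.589 and 1.19 CPM, -1.53). Most of these values come to a few UMIs. Mature B cells had 12 members tested, 1 at an unadjusted p under 0.05, against 5.36% of all genes (1.19% of all genes were called). The member was Ung, with 28.9, 14.3, 6.77 and 8.69 CPM (-1.36, edgeR's adjusted p = 0.912), below both Ctrl libraries in both HLU libraries. Of all genes, 30.3% lay below both Ctrl libraries in HLU 1 and 36.7% in HLU 2. The other members ran from Dut (50.6, 55.7, 67.7 and 84.5 CPM, 0.49), Mcm3 (0.15) and Hells (0.12) to Mcm6 (-0.19) and Mcm5 (-0.55).

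Chondrocytes had 38 members tested and 0 called (0.0% of all genes). Of these members 2 had an unadjusted p under 0.05, as did 10.1% of all genes. Ube2c gave 31.8, 34.0, 12.97 and 4.13 CPM (log2 difference -2.09, edgeR's adjusted p = 0.298). Cenpf gave 393, 141, 0 and 0 UMIs. By counting error alone, 3 counts over the 732402 UMIs of both HLU libraries would put it at least 5.29-fold lower. That bound leaves out the spread between cells and libraries, and only 31, 33, 1 and 2 chondrocytes were mitosis-positive. Bub1 gave 30, 57, 0 and 0 UMIs, which the HLU depth could not have told from Ctrl. Aurkb (4.46, 8.18, 0 and 2.06 CPM, -2.31) had the next lowest value, and Uhrf1 (3.15, 3.24, 0 and 10.3 CPM, 0.93), Plk1 (2.19, 2.07, 3.24 and 4.13 CPM, 0.82) and Gins2 (3.76, 5.21, 6.48 and 6.19 CPM, 0.49) the highest. The gate itself was not alike in the groups, since markers of mesenchymal stromal cells had medians of 171, 193, 15.6 and 42.4 per 10000 UMIs in it. The part of this in the values was not tested.

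Other genes of the cell cycle, from lists written for this work, went with the members in sums over all barcodes. Of 70 genes 23 were called by edgeR, 20 higher and 3 lower, with 6.06% of all genes called higher and 17.1% lower. Higher were 16 of the 30 other mitosis genes, by 1.31 (Racgap1) to 2.17 (Knl1) on the log2 scale, the others being Kif20b, Dlgap5, Bub1b, Kif2c, Ckap2l, Kif20a, Ect2, Incenp, Spc25, Cdca8, Kif23, Ttk, Foxm1 and Cdca3. Of the 25 other S phase genes, E2f2 (6.64, 11.1, 36.2 and 37.5 CPM), E2f8 (3.65, 5.68, 13.1 and 21.4 CPM) and the maintenance DNA methyltransferase Dnmt1 (17.4, 20.9, 39.2 and 88.5 CPM) rose by 2.05, 1.89 and 1.73. Ccnd3, a G1 cyclin of blood cells, rose by 1.32 (60.8, 82.6, 160 and 197 CPM). In all 4 of these genes, which were picked by the test, both HLU libraries were above both Ctrl libraries. Of all genes, 44.4% lay above both Ctrl libraries in HLU 1 and 43.5% in HLU 2.

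The lower genes were inhibitors of cyclin-dependent kinases. Cdkn1a (p21), the inhibitor with most UMIs, fell by 1.84 (475, 504, 161 and 112 CPM), Cdkn1c (p57) fell by 3.12 (17.3, 12.4, 1.89 and 1.53 CPM) and Cdkn2b (p15) fell by 2.46 (4.72, 3.84, 1.05 and 0.517 CPM), with edgeR's adjusted p of 0.0168, 0.00533 and 0.0237. Cdkn2d went the other way without passing the test (64.3, 96.8, 140 and 146 CPM, 0.83, edgeR's adjusted p = 0.113). With the skeletal and endothelial gates left out, 0 of the 70 genes were called. Within immature neutrophils Cdkn1a gave 182, 245, 97.0 and 52.5 CPM (-1.51, edgeR's adjusted p = 0.171) and within monocytes 388, 537, 304 and 155 CPM (-1.01, edgeR's adjusted p = 0.783). In both types the HLU libraries lay below the Ctrl libraries. Of all genes in immature neutrophils, 38.1% lay below both Ctrl libraries in HLU 1 and 42.6% in HLU 2. In monocytes these shares were 33.6% and 41.6%. Over the 7 gated types the log2 difference of Cdkn1a ran from -2.29 in mature neutrophils to -0.49 in chondrocytes. Of the 70 genes, 0 were called by edgeR in any of these types. The blood cell gates were not alike in the groups. Markers of mesenchymal stromal cells had medians of 9.92, 8.58, 0 and 0 per 10000 UMIs in mature neutrophils. In immature neutrophils these medians were 3.98, 4.42, 0 and 0, and in monocytes 3.59, 3.82, 0 and 0. The part of skeletal transcripts in the Cdkn1a values of these gates was not tested.

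In immature neutrophils the members' values in HLU 2 went with transcript length, a pattern noticed after the values were seen. Over the longest annotated transcript of each gene (GENCODE M21), Spearman's rho between length and the log2 ratio of HLU 2 to the mean of Ctrl was 0.72 over the 17 S phase members and 0.72 over the 22 mitosis members, against 0.18 over 10894 genes. The long transcripts of Cenpf (11130 bases), Mki67 (10061) and Cenpe (7910) had ratios of 1.63, 1.55 and 1.32, and the short ones of Ube2c (2191) and Aurka (1905) had -0.41 and -0.48. For HLU 1 rho was -0.57 over the S phase members and 0.13 over the mitosis members, and for Ctrl 2 against Ctrl 1 it was 0.05 and 0.48. The points of 1 library share its depth and capture, and the part of these in the pattern was not tested.

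**Figure D5:**
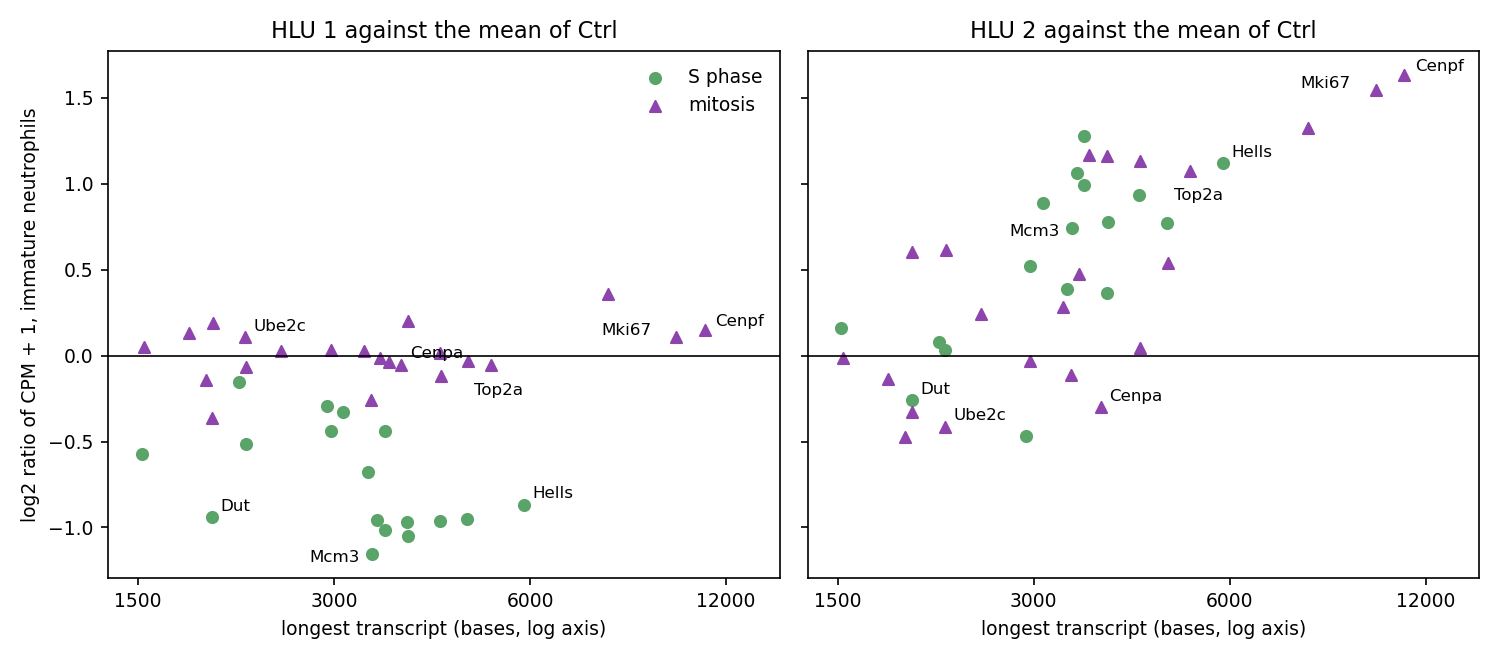
Log2 ratio of CPM + 1 to the mean of the Ctrl libraries in immature neutrophils, against the longest annotated transcript in bases (log axis), for S phase (circles) and mitosis members (triangles) in HLU 1 (left) and HLU 2 (right). In HLU 2 the ratio climbs with length up to 1.63 for Cenpf, while in HLU 1 the mitosis members stay near 0 and the S phase members lie below it.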

How the data were processed

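Bone cells of 2 Ctrl and 2 HLU mice were captured in droplets. The deposited tables hold whole UMI counts for each gene and barcode, which the authors made with Cell Ranger 6.0.0 on mm10 and left unnormalized (Seurat 4.1.0 is listed for later steps). Between 10000 and 10003 barcodes were deposited per library. Barcodes with 1000 to 40000 UMIs and at most 10% mitochondrial UMIs were kept. The members, gene lists and tests were chosen with earlier results of these data known, and the thresholds of the 17 gates (12 to 200 marker UMIs per 10000, with at least 3 UMIs of at least 2 markers) were set after the distributions were seen. A barcode that passed several gates took the one it exceeded by most. Doublets were the barcodes with the highest scores of Scrublet in scanpy 1.11.5. Their share was set at 0.8% per 1000 barcodes, so 5.87% to 7.59% followed from library size and is no measured rate. They were kept, and leaving them out was an alternative.

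Cells were thinned to 2000 UMIs, and shares were compared over libraries by a two-sided exact permutation test (scipy 1.17.1) in types with at least 20 cells in every library. Library sums of UMIs in each type went through the quasi-likelihood test of edgeR 4.0.16 in R 4.3.3 (filterByExpr, TMM factors) over all genes with Benjamini-Hochberg adjustment at 0.05, and with DESeq2 1.42.0 as an alternative. Counts were also simulated with 200 changed genes and a fixed dispersion of 0.05 for every gene. On them edgeR recovered 95% of 4-fold and 13% of 2-fold changes in immature neutrophils (10698 genes). It recovered 93% and 14% in monocytes (9696 genes), and 85% and 10% in T and NK cells (4633 genes). These rates do not apply where libraries of a group spread more, as those of HLU did for Mki67 in monocytes. Depth differed between libraries (45347595 to 87604282 UMIs), so precision did too.

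Values are given for members called in a comparison, for the 3 largest rises and falls of each comparison, for the 5 S phase and 5 mitosis members with most UMIs, for the other cell cycle genes called and the inhibitor with most UMIs, and for Birc5, Ube2c and Cdkn3. Transcript lengths came from GENCODE M21 and promoters from RefSeq, without chromosome 18. No columns of other samples were present. Alternatives were other call thresholds and depths, normalizations, filters and gates, a replicate block, and each library left out in turn.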

Additional observations from a re-analysis of the deposited data

Results flagged for a closer look

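In 4 of the 7 cell types compared, every HLU library lay on the same side of every Ctrl library in the share of dividing cells. The exact permutation test gave p = 0.333 for each, the smallest that 2 libraries against 2 allow. The difference, HLU minus Ctrl, was 22.6 percentage points in primary granule progenitors, 15.2 in monocytes, 3.03 in mature B cells and -5.78 in T and NK cells. Primary granule progenitors, monocytes and mature B cells were thus higher and T and NK cells lower in HLU, and whether these differences differ between types was not tested. The monocyte value rested on HLU 2, without which it was 1.88 points. The value of mature B cells changed sign without thinning, and that of T and NK cells did so with a threshold of 2 UMIs.

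Barcodes over 40000 UMIs, which no comparison used, were mostly dividing in HLU 2, at 77.4% of 230 barcodes, of which 109 fell in the gate of primary granule progenitors, 53 in that of monocytes and 15 in that of immature neutrophils. In the other libraries 4 of 6, 6 of 17 and 5 of 15 such barcodes were dividing. The upper limit thus left out 178 dividing barcodes of HLU 2 and 4 to 6 of each other library.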

How the results depend on the processing

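Limits were few libraries, unequal depth and 1 HLU library that stood apart. The values that answer a comparison were counted once for each alternative: 280 kept their direction and size or call, 56 moved and 27 reversed. Counts of 0 called genes that stayed at 0 are among those kept. The cause was not tested where no value shows it. No label says that replicate numbers pair the libraries, and 2 pairs cannot show it (correlation of same-numbered deviations -0.05 to 0.18). With the replicate block, 17 members (11 shared with the 16 called) and 29 other genes were called over all barcodes, 8 members and 1 other gene in T and NK cells and 1 member in chondrocytes, while share differences, such as 10.3 points over all barcodes, are the same with the block by construction.

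Dividing-share differences, in percentage points, turned as follows. In T and NK cells -5.78 became 1.52 with a threshold of 2 UMIs. In chondrocytes 0.424 became -0.0558 with a threshold of 5 UMIs, -2.82 thinned to 1000 UMIs, -2.40 with S phase genes only, -0.359 without doublets and -0.993 with stricter gates. In immature neutrophils 5.02 became -1.68 with S phase genes only. In mature B cells 3.03 became -0.746 with a threshold of 5, -11.9 thinned to 4000 UMIs, -5.20 not thinned and -0.0713 with mitosis genes only. In mature neutrophils 0.330 became -0.659 thinned to 4000 UMIs and -0.0849 with S phase genes only. Leaving out 1 library gave 6.16 to 14.3 over all barcodes, 12.3 to 32.9 in primary granule progenitors, -1.87 to 11.9 in immature neutrophils, 1.88 to 28.5 in monocytes, -0.558 to 1.22 in mature neutrophils, 1.88 to 4.19 in mature B cells and -7.81 to -3.75 in T and NK cells.

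The mitosis-positive part of dividing cells turned in T and NK cells from -32.4 to 30.8 (thinned to 1000), 13.1 (4000) and 8.47 (not thinned), over all barcodes from 4.35 to -0.304 (threshold 5), in mature neutrophils from 12.2 to 0 (threshold 5), in monocytes from -8.26 to 7.03 (threshold 2), 10.5267 (thinned to 4000) and 12.3 (not thinned), and in primary granule progenitors from -3.45 to 5.24 (threshold 2) and 9.22 (not thinned). Without 1 library it was -20.5 to 13.6 in primary granule progenitors and -3.76 to 7.88 in immature neutrophils.

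Members called over all barcodes were 28 by DESeq2, 0 without skeletal and endothelial gates and 0 to 37 without 1 library. In T and NK cells they were 12 with no filter, 3 by DESeq2, 0 with at least 10 counts in every library, 0 with stricter gates, 0 with barcodes over 10000 UMIs left out (none of the 5 could then be tested) and 0 to 10 without 1 library. With no filter they were 2 in primary granule progenitors, 2 in immature neutrophils, 4 in monocytes and 1 in the interaction. Without 1 library they were 0 to 21, 0 to 17, 0 to 31 and 0 to 16 there, 0 to 8 in mature neutrophils and 0 to 4 in chondrocytes; a lone library was assumed to vary like the other group.

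Other cell cycle genes called over all barcodes were 41 by DESeq2, 0 without skeletal and endothelial gates and 1 to 59 without 1 library. With no filter they were 1 in primary granule progenitors, 6 in immature neutrophils, 3 in mature neutrophils, 2 in monocytes, 1 in mature B cells and 2 in T and NK cells. DESeq2 called 1 in immature and 1 in mature neutrophils, and leaving out barcodes over 10000 UMIs gave 1 in T and NK cells. Without 1 library they were 0 to 26 in primary granule progenitors, 0 to 27 in immature neutrophils, 0 to 15 in mature neutrophils, 0 to 42 in monocytes, 0 to 1 in mature B cells, 0 to 4 in T and NK cells and 0 to 4 in chondrocytes. Over all alternatives, the call of a single gene was lost 66 times, among them all 16 members without skeletal and endothelial gates and 5 (Aurka, Cdc20, Cdc45, Cdk1 and Ube2c) with the replicate block.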

Other observations

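Mitosis-positive cells came mainly from the same types in every library. Immature neutrophils were 50.7%, 60.8%, 59.2% and 53.9% of them and primary granule progenitors 12.04%, 9.22%, 14.7% and 16.02%. Monocytes made up 3.08%, 3.98%, 4.21% and 13.4%, and erythroid cells 0%, 0.21%, 1.18% and 5.999%, with HLU 2 highest for both. Chondrocytes were 8.68% and 6.92% of the mitosis-positive cells in Ctrl and 0.13% in each HLU library. Barcodes that passed no gate were 18.2%, 10.1%, 11.8% and 7.08%.

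Genes of other steps of the cycle also went with the mitosis-positive immature neutrophils. Rbl1 (p107), a pocket protein that binds E2F factors, stood at 27.5, 25.5, 30.6 and 28.0 CPM in them and at 3.76, 4.48, 3.50 and 7.88 CPM in non-dividing cells. Ccnd3 stood at 254, 233, 279 and 311 CPM against 218, 233, 256 and 250 CPM, which is a small difference beside that of Rbl1. In monocytes Cdkn2c stood at 117, 55.5, 41.6 and 34.1 CPM in mitosis-positive and at 3.01, 6.30, 5.43 and 0.876 CPM in non-dividing cells.

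The relation of the members to transcript length in HLU 2 was seen in other types too. Spearman's rho was 0.65 for S phase and 0.63 for mitosis members in primary granule progenitors, against 0.33 over 9013 genes, and 0.64 and 0.61 in monocytes, against 0.03 over 9844 genes.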
